A study of Mus musculus with 16 samples.

Results

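The genes of the interferon response and of class I antigen presentation were followed across mouse brain tumours of 3 genotypes and normal brain. The list holds 53 genes, chosen by function but with earlier results of these data known. A gene counted as measured where the array annotation gave a probe set its symbol alone. Of the 53, 47 were measured, among 19938 named genes and 35556 probe sets in all. The other 6 were left out of the tests: Isg15, Gbp2, Igtp, H2-K1 and H2-D1 share their probe sets with other genes, and Ifi44 had no listed probe set. Total RNA was measured on 16 Affymetrix arrays, 4 for each of 4 groups, and every value below is a log2 expression value or, where stated, a difference of log2 values. The control arrays came from normal brain, wild type for Pdgfb, Trp53 and Rbpj. The PDGF+p53-/- tumours arose in p53 floxed mice from a retrovirus that carries PDGF-B together with the Cre recombinase. The PDGF+p53-/-RBPjk-/- tumours came from the same virus in mice with floxed p53 and floxed RBPjk. The p53-/-RBPjk-/- tumours had no virus and a wild-type Pdgfb gene. Here the inducible recombinase Hes5::CreERT2 deleted both genes in cells that express Hes5, a gene of neural stem cells. All 3 tumour types thus share the loss of p53, and tumour tissue was dissected by a GFP reporter once the mice had symptoms. Arrays are numbered in each group without a statement that they came from separate animals, so a p-value here speaks only of spread among these arrays, which may be technical.

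Interferons are secreted proteins that cells release when they sense foreign or misplaced nucleic acid. Type I interferons signal through JAK kinases to STAT2 and IRF9, which act at interferon-stimulated response elements. Type II interferon, made mainly by T cells and NK cells, acts on genes with gamma-activated sites and through the factor IRF1. The induced genes encode antiviral effectors, nucleic acid sensors, GTPases and the machinery that loads peptides on MHC class I. Class I molecules show peptides from inside the cell to CD8+ T cells, and brain tissue carries little class I at rest.

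Promoter letters are shown first, since the response elements are short and can be read directly. The 6 members shown were picked by hand among those with a match before the start of the gene. They do not stand for the members called below: Ifit1, Oas1a, Gbp3 and Psmb8 passed the test in no tumour type. RefSeq promoters of GRCm38.p6 were at hand for 35 of the 47 measured members, each a window of 300 bases from 250 before to 50 after the start of the gene. A pair of GAAA runs with any 2 bases between them, the core of the interferon-stimulated response element, occurred on either strand in 15 of the 35 (42.9%) and in 3.99% of 27025 genes with such a window. The gamma-activated letters TTCNNNGAA, which read the same on both strands, occurred in 10 of 35 (28.6%) and in 9.55% of all windows. Only 4 members held both motifs. Of the members whose calls below held under every setting, Ddx58 and Eif2ak2 matched the first motif, and Ifit2 and Eif2ak2 the second. Their stretches are not shown. Trim25 and Ifi27 had no match to either motif, and whether they had a window was not listed. A match is a description of these letters and shows no binding. Capitals mark the matches in the stretches below, each written 5′ to 3′ on the strand of its gene, and on the other strand the first motif reads as a pair of TTTC runs.
Ifit1: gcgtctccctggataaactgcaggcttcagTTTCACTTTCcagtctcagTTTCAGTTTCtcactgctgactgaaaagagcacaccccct
Oas1a: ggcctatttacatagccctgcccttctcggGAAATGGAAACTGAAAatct
Gbp3: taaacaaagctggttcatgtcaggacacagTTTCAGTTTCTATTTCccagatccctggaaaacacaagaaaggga
Irgm1: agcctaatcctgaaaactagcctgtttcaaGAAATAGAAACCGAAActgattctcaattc
Irf1: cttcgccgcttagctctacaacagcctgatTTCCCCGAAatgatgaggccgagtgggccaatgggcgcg
Psmb8: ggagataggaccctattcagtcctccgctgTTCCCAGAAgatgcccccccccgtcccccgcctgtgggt
The Ifit1 stretch lies at chr19:34640755-34640843 on the plus strand and has 2 separate matches. In Oas1a (chr5:120907526-120907575, minus strand), Gbp3 (chr3:142559969-142560043, plus strand) and Irgm1 (chr11:48871421-48871480, minus strand), 2 matches overlap to form a longer run of repeats. The stretches of Irf1 (chr11:53769894-53769962, plus strand) and Psmb8 (chr17:34198068-34198136, plus strand) each hold 1 match to the gamma-activated letters and none to the other motif. All 6 stretches lie at or before the annotated start of the gene.

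The labels were checked on a few genes. Rbpj, the DNA-binding factor of Notch signalling and the target of 1 deletion, had a mean of 8.01 ± 0.20 in control (SD, n = 4), 8.32 ± 0.16 in PDGF+p53-/-, 7.73 ± 0.15 in PDGF+p53-/-RBPjk-/- and 7.78 ± 0.12 in p53-/-RBPjk-/- tumours. Each of the 8 arrays labelled RBPjk-/- was below all 4 PDGF+p53-/- arrays, and which exons its probes read is not stated. Trp53 was not analysed here. Pdgfb lay between 5.23 and 6.31 on all arrays, and no source used here says whether its probes read the viral transcript. The arrays labelled tumour were far below normal brain in neuronal genes (12 of 12 genes lower in each tumour type) and above it in oligodendrocyte precursor genes (8 of 9) and cell division genes (9 of 9). Array medians over all named genes ran from 5.97 to 6.06. Replicate 4 of the PDGF+p53-/- tumours and replicate 2 of the p53-/-RBPjk-/- tumours stood far above the other arrays in the genes described here, so results are also given without them.

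Most members lay higher in tumours than in normal brain, and about 1 in 3 passed the test in each tumour type. In PDGF+p53-/- tumours 16 of the 47 rose and 0 fell, where 13.6% of all 19938 genes rose and 17.6% fell (limma, adjusted p under 0.05). Their median difference was 0.98, against -0.04 for all genes, and 46 of the 47 differences were positive. In PDGF+p53-/-RBPjk-/- tumours 13 of 47 rose and 0 fell, where 15.7% of all genes rose and 17.9% fell. The median difference was 0.79 and 42 were positive. The p53-/-RBPjk-/- tumours had 15 of 47 higher and 0 lower, where 16.4% of all genes rose and 20.4% fell. Their median difference was 1.0001 and 45 were positive. Arrays did not overlap, all tumours being higher, in 25, 17 and 11 members, where this held for 12.7%, 16.5% and 15.1% of all genes. At an unadjusted p under 0.05 there were also 0 lower members in each comparison. These 3 comparisons use the same control arrays, so their likeness is no independent support. The tissue is bulk, so more cells of a type and more RNA per cell cannot be told apart.

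**Figure D1:**
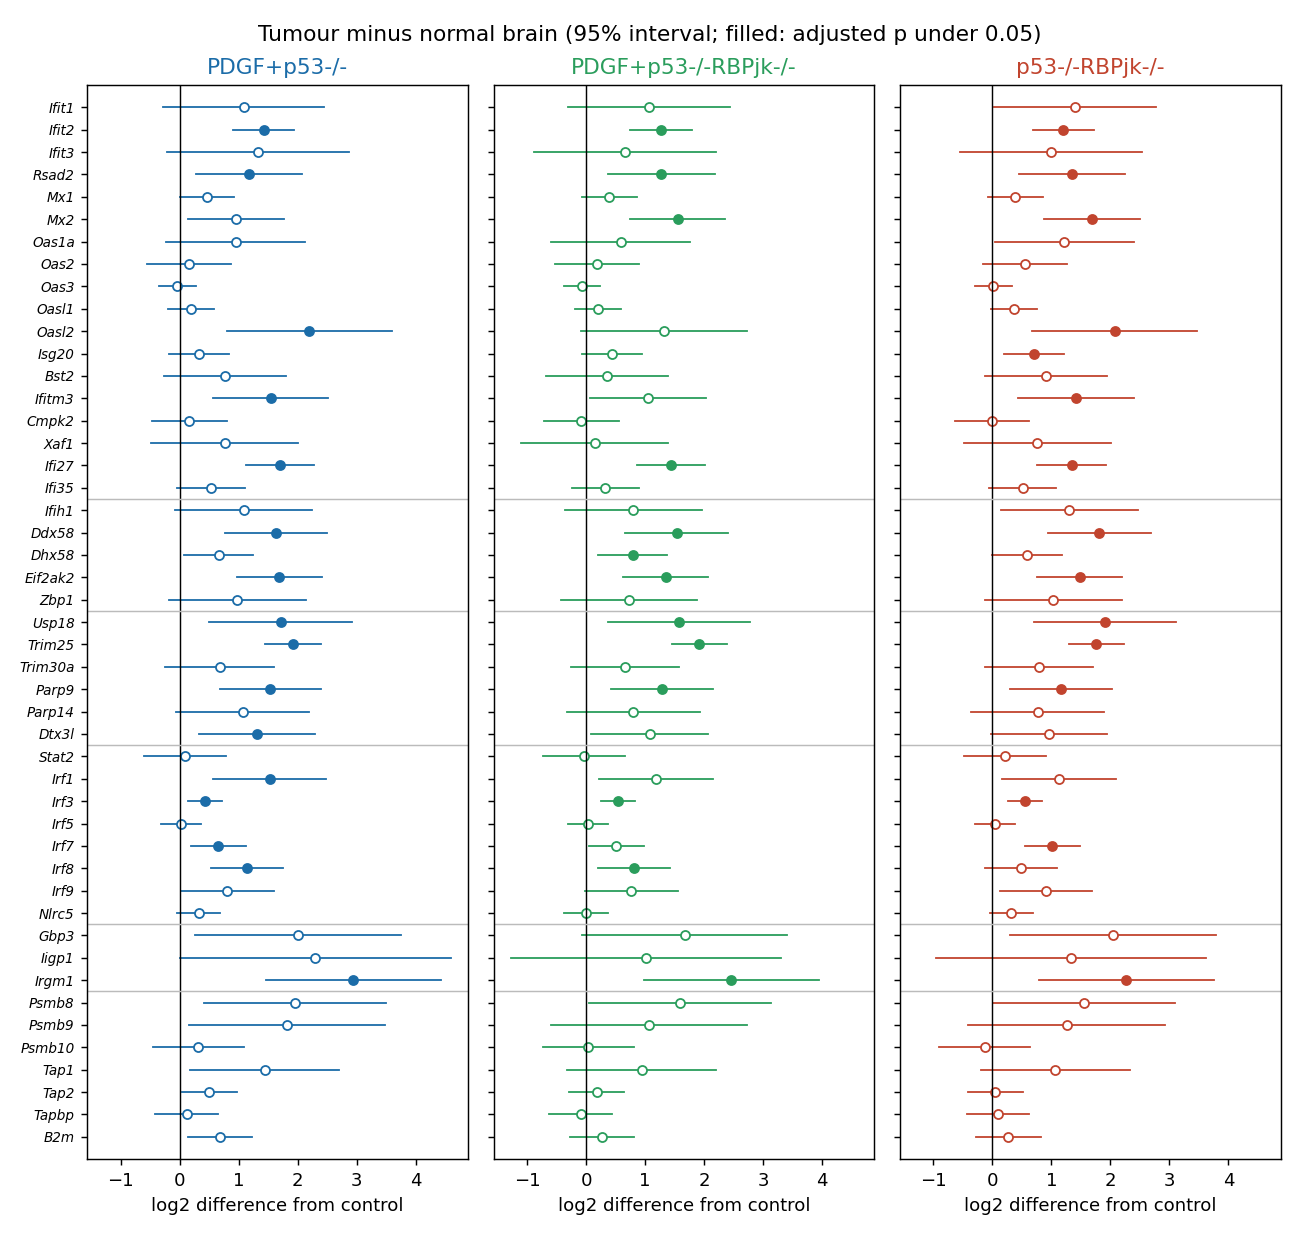
Difference of each of the 47 measured members from control (log2 scale, horizontal axis) in the 3 tumour types, with 95% intervals from the limma fit and n = 4 arrays a group. Filled points have an adjusted p under 0.05, which holds for 16, 13 and 15 members from left to right, all to the right of 0. Of all genes 13.6%, 15.7% and 16.4% rose in these comparisons. Rows are grouped by role, and none of the 7 class I genes in the lowest block is filled.

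The counts leaned on single arrays. Without replicate 4 of the PDGF+p53-/- tumours 10 members (21.3%) rose, where 12.3% of all genes rose, and the median was 0.66. Without replicate 2 of the p53-/-RBPjk-/- tumours 9 (19.1%) rose, where 14.6% of all genes did, with a median of 0.45, and without their replicate 1 it was 25 (53.2%), where 15.5% did. For the PDGF+p53-/-RBPjk-/- tumours 8 (17.02%) rose without their replicate 1, where 14.2% of all genes did, with a median of 0.56, and 8 without control replicate 4, where 14.4% did. These last shares are close to those of all genes. Calls in either direction, with 0 lower members, took in more of all genes than of the members without those 3 high arrays. The shares of all genes were 28.2% for PDGF+p53-/-, 29.3% for PDGF+p53-/-RBPjk-/- and 33.8% for p53-/-RBPjk-/- tumours. All calls that remained without the high arrays were among the original ones, 10 of 16, 8 of 13 and 9 of 15 in the same order.

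A smaller set of members held throughout. In all, 10 members rose in all 3 tumour types: Ifit2, Rsad2, Ifi27, Ddx58, Eif2ak2, Usp18, Trim25, Parp9, Irf3 and Irgm1. That is 21.3% of the members, where 10.2% of all genes rose in all 3 types. For 10 members (21.3%) all 12 tumour arrays lay above all 4 control arrays, where 8.45% of all named genes did so. These were Ifit2, Rsad2, Mx2, Ifi27, Ddx58, Eif2ak2, Trim25, Parp9, Irf1 and Irf7. In 5 members, Ddx58, Eif2ak2, Ifi27, Ifit2 and Trim25, the calls in all 3 tumour types held under each of the 25 alternative settings, every array left out in turn included. How many of all genes held so was not counted, so this count cannot be set against a background share. Trim25 and Ifit2 of this core are shown array by array below and were chosen for that after their values were seen.

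**Figure D2:**
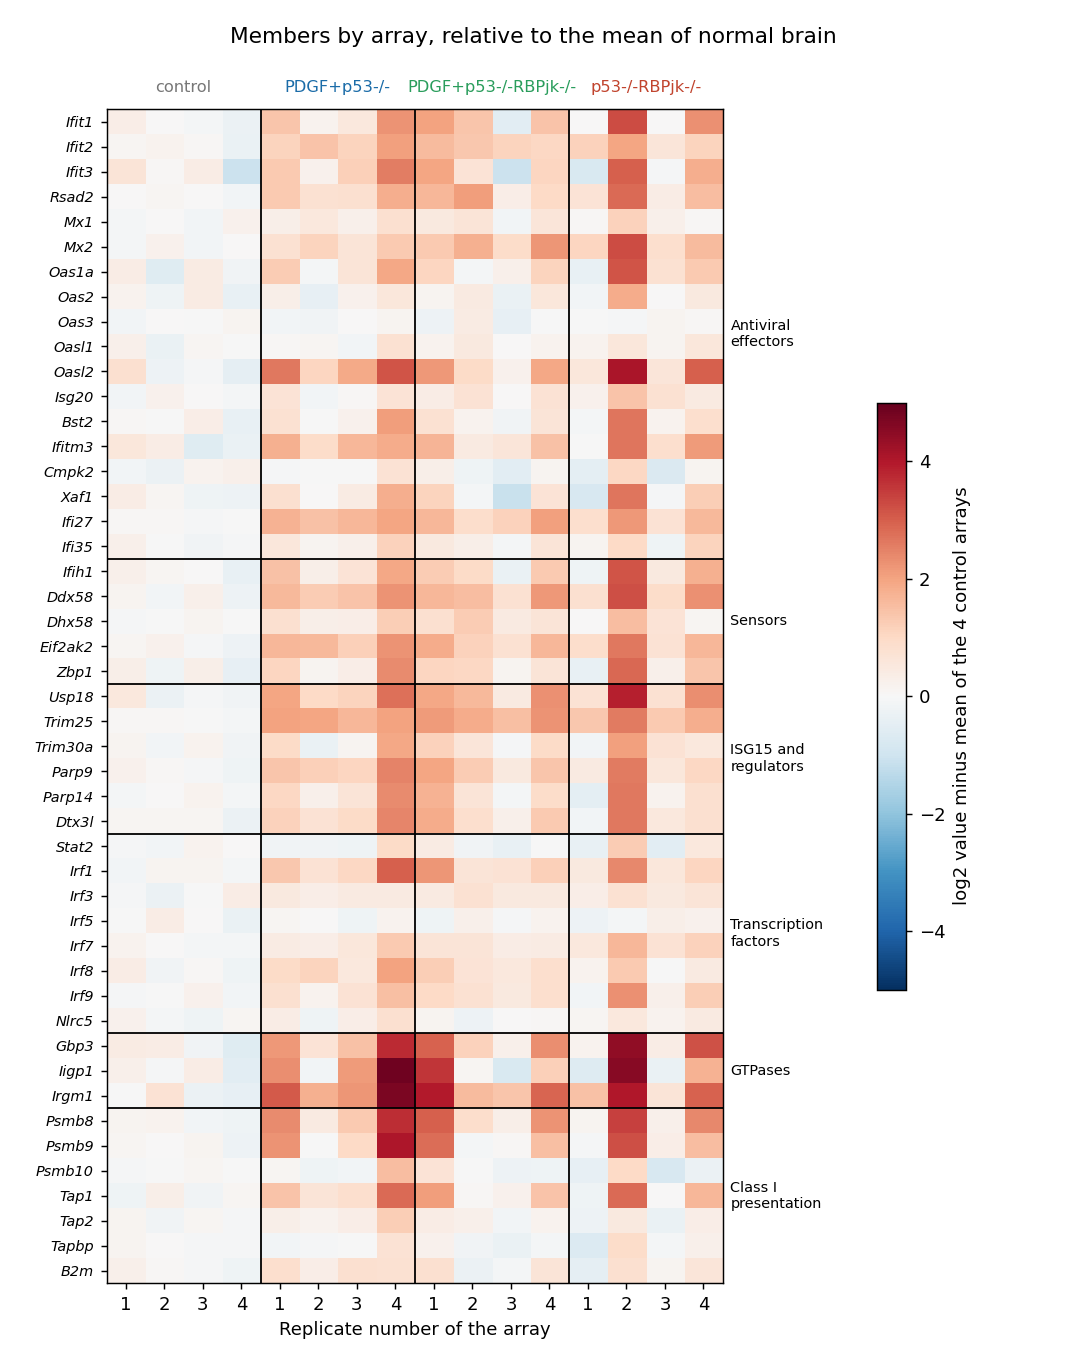
Each of the 47 measured members (rows, grouped by role) on each of the 16 arrays (columns, replicate number within the group), as the log2 value minus the mean of the 4 control arrays. Red is above and blue below the control mean. Replicate 4 of PDGF+p53-/- and replicate 2 of p53-/-RBPjk-/- are the reddest columns, and replicate 1 of p53-/-RBPjk-/- is close to control in most rows.

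The regulators of transcription came first in the order of the pathway, and 4 of the 8 rose in PDGF+p53-/- tumours and 2 in each of the others. Of all genes 13.6%, 15.7% and 16.4% rose in the 3 types. Irf1, the factor that interferon gamma induces most directly, was at 5.88, 6.16, 6.16 and 5.93 in control. It read 7.37, 6.76, 7.07 and 9.01 in PDGF+p53-/-, 8.25, 6.67, 6.75 and 7.22 in PDGF+p53-/-RBPjk-/- and 6.53, 8.42, 6.60 and 7.09 in p53-/-RBPjk-/- tumours. No tumour array overlapped the controls, yet within each type the highest array stood apart from the next by more than the whole range of the controls. The difference passed the test in PDGF+p53-/- tumours (1.52 ± 0.46 (SE), limma adjusted p = 0.016), and without replicate 4 it was 1.04 with an adjusted p of 0.0619. In the other types it was 1.19 ± 0.46 (adjusted p = 0.0537) and 1.13 ± 0.46 (adjusted p = 0.0626). A second, dimmer probe set of Irf1 lay higher in each tumour mean too.

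Irf9, the DNA-binding part of the type I complex, was at 6.45, 6.47, 6.73 and 6.35 in control and 7.32, 6.68, 7.21 and 8.02 in PDGF+p53-/- tumours. It was at 7.51, 7.26, 6.97 and 7.32 in PDGF+p53-/-RBPjk-/- and 6.38, 8.78, 6.77 and 7.71 in p53-/-RBPjk-/- tumours. The PDGF+p53-/-RBPjk-/- arrays were clear of the controls, while replicate 2 of PDGF+p53-/- and replicate 1 of p53-/-RBPjk-/- were not. No difference of Irf9 passed the test (0.80, 0.77 and 0.91, adjusted p = 0.117, 0.132 and 0.066). Its partner Stat2 differed by only 0.09, -0.04 and 0.21.

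Irf8, a factor of microglia and other myeloid cells as well as of the interferon response, was at 6.26, 5.71, 5.94 and 5.69 in control. The PDGF+p53-/- arrays were at 6.84, 7.005, 6.43 and 7.89, all above the controls, and rose by 1.14 ± 0.29 (adjusted p = 0.00534). The PDGF+p53-/-RBPjk-/- arrays at 7.11, 6.58, 6.43 and 6.73 rose by 0.82 ± 0.29 (adjusted p = 0.0375). In p53-/-RBPjk-/- tumours, at 6.07, 7.22, 5.86 and 6.36, the groups overlapped and the difference of 0.48 did not pass. Irf8 fell outside the test without replicate 1, 2 or 4 of the PDGF+p53-/-RBPjk-/- arrays or control replicate 2, 3 or 4 (difference down to 0.68 and an adjusted p up to 0.118), while its call in PDGF+p53-/- held under each setting.

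Irf3, the factor that sensors switch on by phosphorylation, rose by small but even amounts in all 3 types: 0.43 ± 0.14, 0.54 ± 0.14 and 0.55 ± 0.14 (adjusted p = 0.0218, 0.00477 and 0.0038). The first of these calls was lost without control replicate 1 or 2 or tumour replicate 1 (down to 0.33 and an adjusted p up to 0.0842). The 12 tumour arrays spanned only 0.42, the narrowest range of any member. Irf7, which amplifies the type I response, rose in PDGF+p53-/- (0.65 ± 0.22, adjusted p = 0.0315) and p53-/-RBPjk-/- tumours (1.02 ± 0.22, adjusted p = 0.00129). The former call was lost without replicate 4 (0.43, adjusted p = 0.124) or control replicate 2, 3 or 4 (adjusted p up to 0.124). Irf5 differed by at most 0.04, and Nlrc5, the transactivator of class I genes, by 0.32 and 0.32 in PDGF+p53-/- and p53-/-RBPjk-/- tumours without passing. Nlrc5 has 19 probe sets, of which 18, 15 and 18 had a higher mean in the 3 tumour types than in control, and the brightest stood for the gene.

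Among the 5 sensors of nucleic acid, Ddx58 and Eif2ak2 rose in every tumour type, as did 10.2% of all genes. Ddx58 encodes RIG-I, which detects uncapped RNA, and was at 6.34, 6.04, 6.46 and 5.94 in control and 7.82, 7.46, 7.62 and 8.43 in PDGF+p53-/- tumours. It was at 7.86, 7.75, 6.97 and 8.35 in PDGF+p53-/-RBPjk-/- and 7.02, 9.41, 7.12 and 8.50 in p53-/-RBPjk-/- tumours. The lowest tumour array was clear of the highest control. Its differences were 1.63 ± 0.41, 1.54 ± 0.41 and 1.81 ± 0.41 (adjusted p = 0.00525, 0.00725 and 0.00184), or 3.1-, 2.9- and 3.52-fold. Eif2ak2 encodes PKR, the kinase that halts translation on double-stranded RNA, and rose by 1.68 ± 0.34, 1.35 ± 0.34 and 1.48 ± 0.34 (adjusted p = 0.000926, 0.0048 and 0.00208).

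Ifih1, the sensor MDA5 for long double-stranded RNA, spread far more than its relative Ddx58. Controls were at 6.77, 6.60, 6.55 and 6.16, PDGF+p53-/- tumours at 7.97, 6.81, 7.19 and 8.46 and PDGF+p53-/-RBPjk-/- tumours at 7.78, 7.49, 6.18 and 7.82. The p53-/-RBPjk-/- arrays, at 6.30, 9.67, 6.9998 and 8.31, ranged from within the controls to the highest value of any array. No difference passed (1.09, 0.80 and 1.30, lowest adjusted p = 0.0756). Zbp1, which binds Z-form nucleic acid and can trigger necroptosis, was at 5.75, 5.28, 5.78 and 5.08 in control and 6.55, 5.61, 5.80 and 7.84 in PDGF+p53-/- tumours. It was at 6.56, 6.49, 5.62 and 6.12 in PDGF+p53-/-RBPjk-/- and 5.09, 8.36, 5.73 and 6.85 in p53-/-RBPjk-/- tumours, with overlap in every type and no call. Dhx58, the regulator LGP2, rose in PDGF+p53-/-RBPjk-/- tumours alone by 0.79 ± 0.28 (adjusted p = 0.0378), a call lost without any 1 of the control arrays or tumour replicates 1, 2 and 4 (difference down to 0.63 and an adjusted p up to 0.125). Its differences in the other types were 0.66 and 0.59.

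Among the 18 antiviral effectors, Ifit2, Rsad2, Mx2 and Ifi27 lay above all controls on every tumour array, and the others did not. Even so, the SDs of Ifit2 and Ifi27 in p53-/-RBPjk-/- tumours lay at the 95.3rd and 97.3rd percentile of all genes. In PDGF+p53-/- tumours 5 of the 18 rose, in PDGF+p53-/-RBPjk-/- tumours 4 and in p53-/-RBPjk-/- tumours 7, with medians of 0.86, 0.52 and 0.95. The shares of all genes that rose were 13.6%, 15.7% and 16.4%. Ifit2, which binds viral RNA, was at 7.54, 7.62, 7.50 and 7.12 in control and 8.54, 8.88, 8.56 and 9.50 in PDGF+p53-/- tumours. In PDGF+p53-/-RBPjk-/- tumours it was at 9.01, 8.79, 8.56 and 8.50, and in p53-/-RBPjk-/- tumours at 8.59, 9.40, 8.05 and 8.55. Every tumour array was above every control, and the differences were 1.43 ± 0.25, 1.27 ± 0.25 and 1.20 ± 0.25 (adjusted p = 0.000209, 0.000536 and 0.000725).

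Its neighbours Ifit1 and Ifit3, of the same family, behaved otherwise. Ifit1 was at 5.96, 5.65, 5.53 and 5.35 in control, 7.02, 5.78, 6.15 and 7.87 in PDGF+p53-/- and 7.62, 7.02, 5.09 and 7.05 in PDGF+p53-/-RBPjk-/- tumours. In p53-/-RBPjk-/- tumours, at 5.65, 8.87, 5.66 and 7.90, replicates 1 and 3 sat among the controls and replicate 2 was 9.34-fold above replicate 1. Its differences of 1.08, 1.07 and 1.40 did not pass (lowest adjusted p = 0.107). Ifit3 was at 7.24, 6.64, 6.96 and 5.49 in control, itself a wide range, and 7.89, 6.81, 7.76 and 9.15 in PDGF+p53-/- tumours. It was at 8.55, 7.26, 5.51 and 7.67 in PDGF+p53-/-RBPjk-/- and 5.84, 9.57, 6.51 and 8.41 in p53-/-RBPjk-/- tumours, so each group overlapped the controls and no difference passed.

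Oasl2, a relative of the oligoadenylate synthetases, had the largest difference of the effectors in PDGF+p53-/- and p53-/-RBPjk-/- tumours. It was at 7.20, 6.13, 6.34 and 5.94 in control, 9.03, 7.49, 8.31 and 9.56 in PDGF+p53-/- and 8.58, 7.38, 6.62 and 8.34 in PDGF+p53-/-RBPjk-/- tumours. The p53-/-RBPjk-/- tumours read 6.98, 10.50, 7.02 and 9.41, with 2 arrays below the highest control and 2 far above. It rose in PDGF+p53-/- (2.20 ± 0.67, adjusted p = 0.0171) and p53-/-RBPjk-/- tumours (2.07 ± 0.67, adjusted p = 0.0199). In PDGF+p53-/-RBPjk-/- tumours it differed by 1.33 ± 0.67 (adjusted p = 0.146), less than Mx2. Neither call held without the highest array of the type (1.88, adjusted p = 0.0601, and 1.40, adjusted p = 0.0815). The second was also lost without control replicate 4 or replicate 4 of the type.

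Of the other effectors, Ifi27 rose by 1.70 ± 0.27, 1.44 ± 0.27 and 1.34 ± 0.27 (adjusted p = 0.000109, 0.000481 and 0.000733), with controls between 8.07 and 8.19 and no tumour array under 8.86. Mx2, a dynamin-like antiviral GTPase, rose in PDGF+p53-/-RBPjk-/- (1.55 ± 0.38, adjusted p = 0.00401) and p53-/-RBPjk-/- tumours (1.69 ± 0.38, adjusted p = 0.0018), and differed by 0.96 ± 0.38 in PDGF+p53-/- (adjusted p = 0.0685). Its relative Mx1 differed by 0.46, 0.39 and 0.39 and did not pass. Rsad2, the radical enzyme viperin, rose by 1.18 ± 0.43, 1.27 ± 0.43 and 1.35 ± 0.43 (adjusted p = 0.0448, 0.0284 and 0.0187). The third call was lost only without replicate 2 (0.86, adjusted p = 0.0713). The first was lost without any 1 of the control arrays, replicate 1 or 4 of its own type, replicate 1 or 4 of PDGF+p53-/-RBPjk-/- or replicate 4 of p53-/-RBPjk-/- (difference down to 0.97 and an adjusted p up to 0.135), and the second without control replicate 1, 3 or 4 or tumour replicate 1 or 2 (down to 1.003 and an adjusted p up to 0.103). Ifitm3, which stops viruses at the endosome membrane, rose in PDGF+p53-/- (1.54 ± 0.47, adjusted p = 0.0171, lost without control replicate 3, adjusted p = 0.0593) and p53-/-RBPjk-/- tumours (1.41 ± 0.47, adjusted p = 0.0235, lost without control replicate 3 or 4 or tumour replicate 2 or 4, down to 0.98 and an adjusted p up to 0.0963). Isg20, an RNA exonuclease, rose in p53-/-RBPjk-/- tumours by 0.71 ± 0.24 (adjusted p = 0.0273), a call lost without control replicate 1 or 4 or tumour replicate 2 or 3 (down to 0.47 and an adjusted p up to 0.113). The remaining effectors, Oas1a, Oas2, Oas3, Oasl1, Bst2, Cmpk2, Xaf1 and Ifi35, passed in 0 of the 3 comparisons, with Oas3 and Cmpk2 between -0.08 and 0.16 in each.

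**Figure D3:**
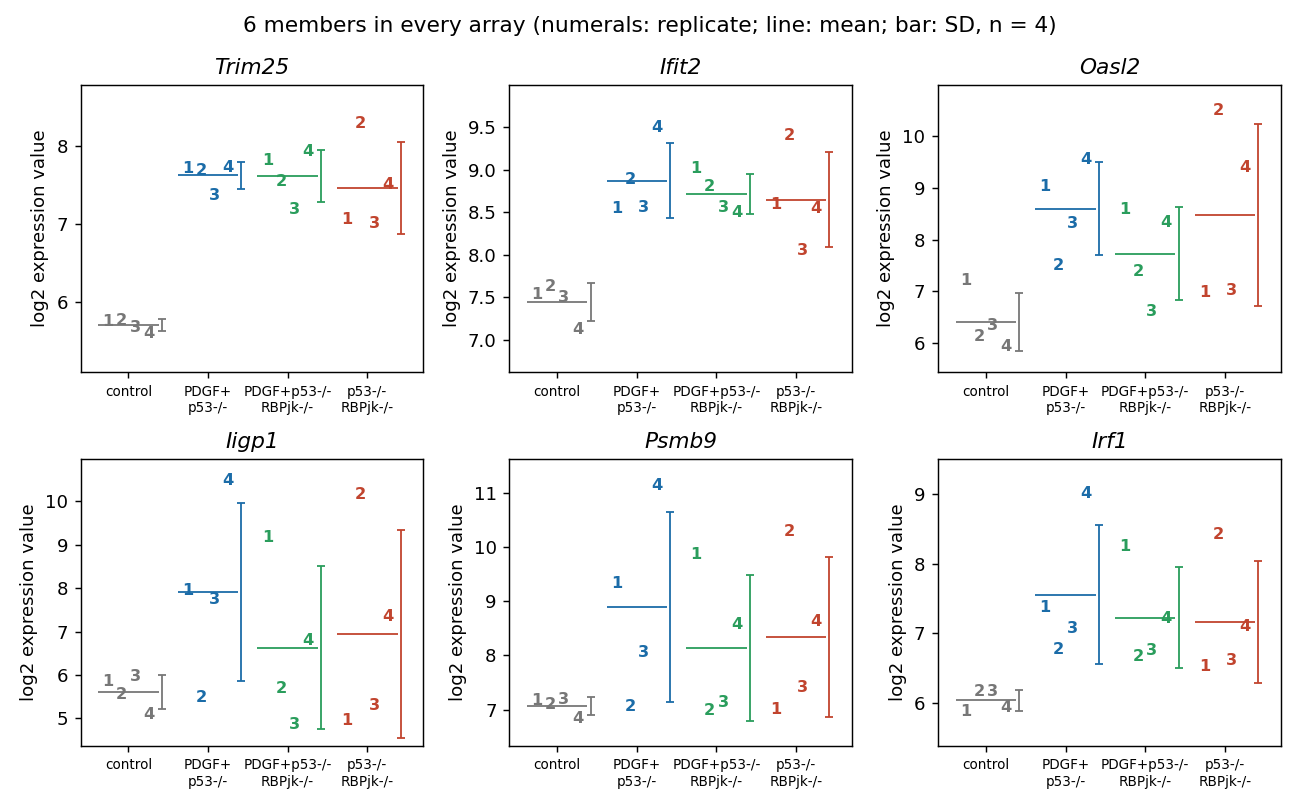
Log2 expression value (vertical axis) of Trim25, Ifit2, Oasl2, Iigp1, Psmb9 and Irf1 on all 16 arrays. Numerals are replicate numbers, the line is the group mean and the bar the SD (n = 4). In Trim25 and Ifit2 all tumour arrays form a band above the controls. In Iigp1 and Psmb9 replicate 4 of PDGF+p53-/-, replicate 1 of PDGF+p53-/-RBPjk-/- and replicate 2 of p53-/-RBPjk-/- are the highest of their types. Other tumour arrays lie between these and the controls, and at least 1 of each type does not exceed the highest control.

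The 6 measured members of the next class conjugate, remove or reshape the marks that tune the response, and 4, 3 and 3 of them rose in the 3 tumour types. Among all genes 13.6%, 15.7% and 16.4% rose. Trim25, the ubiquitin ligase that switches on RIG-I, had the smallest adjusted p of all members in each comparison. Controls were at 5.75, 5.76, 5.67 and 5.60, PDGF+p53-/- tumours at 7.71, 7.68, 7.36 and 7.72 and PDGF+p53-/-RBPjk-/- tumours at 7.81, 7.54, 7.18 and 7.93. The p53-/-RBPjk-/- tumours were at 7.06, 8.28, 6.998 and 7.50, so the lowest tumour array was still 1.24 above the highest control. It rose by 1.92 ± 0.22, 1.92 ± 0.22 and 1.76 ± 0.22 (adjusted p = 3.63e-06, 3.04e-06 and 5.4e-06), or 3.79-, 3.78- and 3.4-fold. Without replicate 4 of PDGF+p53-/-, replicate 1 of PDGF+p53-/-RBPjk-/- and replicate 2 of p53-/-RBPjk-/- its differences were 1.89, 1.85 and 1.49.

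Usp18, which strips ISG15 from proteins and damps the type I receptor, was at 6.21, 5.38, 5.64 and 5.51 in control and 7.65, 6.70, 6.80 and 8.42 in PDGF+p53-/- tumours. It was at 7.62, 7.31, 6.13 and 7.97 in PDGF+p53-/-RBPjk-/- and 6.39, 9.57, 6.44 and 7.99 in p53-/-RBPjk-/- tumours, and 1 array of the 12, replicate 3 of PDGF+p53-/-RBPjk-/-, fell below the highest control. It rose by 1.71 ± 0.57, 1.58 ± 0.57 and 1.91 ± 0.57 (adjusted p = 0.0296, 0.0418 and 0.0131). The first call was lost without control replicate 2, 3 or 4 or tumour replicate 1 or 4 (difference down to 1.37 and an adjusted p up to 0.104). The second was lost without control replicate 2, 3 or 4 or tumour replicate 1, 2 or 4 (down to 1.26 and an adjusted p up to 0.118), and the third held under each setting. Parp9 and Dtx3l form an ADP-ribosyl and ubiquitin ligase pair. Parp9 rose by 1.53 ± 0.41, 1.29 ± 0.41 and 1.17 ± 0.41 (adjusted p = 0.00738, 0.0204 and 0.0317), the second lost without control replicate 4 or tumour replicate 1 (down to 1.05 and an adjusted p up to 0.0781). The third was lost without control replicate 2, 3 or 4 or tumour replicate 2 or 4 (down to 0.68 and an adjusted p up to 0.123).

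Dtx3l was at 5.80, 5.81, 5.78 and 5.43 in control, 6.84, 6.43, 6.65 and 8.14 in PDGF+p53-/-, 7.57, 6.55, 5.98 and 7.03 in PDGF+p53-/-RBPjk-/- and 5.58, 8.32, 6.24 and 6.50 in p53-/-RBPjk-/- tumours. All but the first p53-/-RBPjk-/- array lay above the controls, and PDGF+p53-/- tumours alone passed, by 1.31 ± 0.47 (adjusted p = 0.0414), which was lost without any 1 of the control arrays, replicate 1 or 4 of that type or replicate 2 of PDGF+p53-/-RBPjk-/- (down to 0.94 and an adjusted p up to 0.153). Parp14, another ADP-ribosyl transferase, was at 5.80, 5.93, 6.10 and 5.82 in control and 6.96, 6.16, 6.56 and 8.26 in PDGF+p53-/- tumours. It was at 7.65, 6.54, 5.83 and 6.83 in PDGF+p53-/-RBPjk-/- and 5.41, 8.54, 6.09 and 6.69 in p53-/-RBPjk-/- tumours, where replicates 1 and 3 did not exceed the highest control. Neither Parp14 nor Trim30a passed in any type.

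The 3 measured GTPases of cell-autonomous immunity had the largest median difference of the 6 classes (2.30, 1.67 and 2.04), and Iigp1 and Gbp3 had the widest tumour range of all members. Irgm1, a regulator of the family, was at 6.19, 6.92, 5.89 and 5.78 in control and 9.27, 7.96, 8.42 and 10.90 in PDGF+p53-/- tumours. It was at 10.16, 7.77, 7.57 and 9.12 in PDGF+p53-/-RBPjk-/- and 7.66, 10.21, 6.85 and 9.14 in p53-/-RBPjk-/- tumours, where only replicate 3 overlapped the controls. It rose by 2.94 ± 0.71, 2.46 ± 0.71 and 2.27 ± 0.71 (adjusted p = 0.00354, 0.011 and 0.0164), the largest called difference of the members in each type. These are 7.68-, 5.51- and 4.83-fold. Without the highest array the values were 2.35 (adjusted p = 0.0158), 1.96 (0.0491) and 1.69 (0.0677), and the third call was also lost without replicate 4 of that type.

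Iigp1, an effector that breaks the vacuoles of intracellular pathogens, was at 5.85, 5.55, 5.97 and 5.08 in control, 7.94, 5.49, 7.73 and 10.49 in PDGF+p53-/- and 9.18, 5.69, 4.86 and 6.79 in PDGF+p53-/-RBPjk-/- tumours. The p53-/-RBPjk-/- tumours read 4.95, 10.16, 5.30 and 7.35. The 12 tumour arrays spanned 5.62, or 49.3-fold, with 5 of them no higher than the highest control. Its differences of 2.30 ± 1.09, 1.02 ± 1.09 and 1.33 ± 1.09 did not pass (adjusted p = 0.125, 0.535 and 0.382). Gbp3, a guanylate-binding protein, was at 6.36, 6.32, 5.78 and 5.36 in control and 8.12, 6.62, 7.44 and 9.67 in PDGF+p53-/- tumours. It was at 8.92, 7.10, 6.22 and 8.27 in PDGF+p53-/-RBPjk-/- and 6.14, 10.39, 6.31 and 9.15 in p53-/-RBPjk-/- tumours. All PDGF+p53-/- arrays were above the controls, yet differences of 2.01, 1.67 and 2.04 had adjusted p-values of 0.076, 0.138 and 0.0624.

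None of the 7 class I genes passed in any tumour type, with medians of 0.68, 0.27 and 0.27, and 5, 1 and 1 of them had an unadjusted p under 0.05. As 13.6%, 15.7% and 16.4% of all genes rose, a count of 0 among 7 does not set the class apart. Arrays did not overlap the controls, being higher, in 4, 1 and 0 of the 7, where this held for 12.7%, 16.5% and 15.1% of all genes. Psmb8, Psmb9 and Psmb10 are subunits of the immunoproteasome, which trims proteins to class I peptides. Psmb9 was at 7.17, 7.10, 7.19 and 6.83 in control and 9.34, 7.06, 8.06 and 11.13 in PDGF+p53-/- tumours. It was at 9.86, 6.99, 7.12 and 8.57 in PDGF+p53-/-RBPjk-/- and 7.01, 10.29, 7.40 and 8.63 in p53-/-RBPjk-/- tumours. In each type 1 or 2 arrays did not exceed the highest control, while the highest array was far above it. The differences of 1.82 ± 0.79, 1.06 ± 0.79 and 1.26 ± 0.79 did not pass (adjusted p = 0.0929, 0.346 and 0.243). Psmb8 was at 6.22, 6.28, 5.97 and 5.89 in control, 8.44, 6.53, 7.41 and 9.78 in PDGF+p53-/-, 9.09, 6.98, 6.37 and 8.32 in PDGF+p53-/-RBPjk-/- and 6.24, 9.50, 6.36 and 8.47 in p53-/-RBPjk-/- tumours. All PDGF+p53-/- and PDGF+p53-/-RBPjk-/- arrays were above the controls, and the differences of 1.95, 1.60 and 1.56 had adjusted p-values of 0.0517, 0.108 and 0.111. Psmb10 differed by 0.31, 0.04 and -0.13.

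Tap1, which pumps peptides into the endoplasmic reticulum, was at 5.77, 6.27, 5.81 and 6.06 in control and 7.42, 6.61, 6.83 and 8.81 in PDGF+p53-/- tumours. It was at 8.07, 6.02, 6.21 and 7.39 in PDGF+p53-/-RBPjk-/- and 5.77, 8.81, 5.99 and 7.63 in p53-/-RBPjk-/- tumours, replicates 2 and 3 of the former and 1 and 3 of the latter no higher than the highest control. Its differences were 1.44, 0.94 and 1.07 (lowest adjusted p = 0.0794), while the other chain Tap2 differed by 0.50, 0.18 and 0.05. Tapbp, the tapasin that holds class I molecules at the pump, stayed within 0.12 of control in each mean. B2m, the light chain of all class I molecules, was at 11.66 ± 0.20 in control (SD, n = 4) and 12.34 ± 0.23 in PDGF+p53-/- tumours, where no array overlapped the controls and the difference of 0.68 ± 0.26 had an adjusted p of 0.0544. In the other types B2m differed by 0.27 and 0.27. The heavy chains H2-K1 and H2-D1 share probe sets with each other, and shared sets were tested in a separate limma fit over all 35556 probe sets. There 1 such set rose in PDGF+p53-/- tumours by 2.35 ± 0.68 (adjusted p = 0.0195) and differed by 0.73 and 0.79 in the others. Its control arrays alone ran from 4.92 to 7.34. The other set differed by 1.64, 0.50 and 0.50, without passing. Probe sets shared by other members stood at 2.46, 1.60 and 1.70 for Igtp with Irgm2, 1.58, 0.96 and 1.29 for Gbp2 with Gbp2b, and 0.97, 0.74 and 1.42 for Isg15 with Gm9706, again without a call.

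The spread of the members was far from even across arrays. In control the median SD of the members was 0.20 (n = 4 arrays), close to the 0.19 of all genes. It was 0.55 in PDGF+p53-/-, 0.53 in PDGF+p53-/-RBPjk-/- and 0.92 in p53-/-RBPjk-/- tumours, against 0.20, 0.19 and 0.20 for all genes. The median member lay at the 54.5th percentile of all SDs in control and at the 95.5th, 97.4th and 98.7th in the tumour types. Among the 47 members 35, 29 and 41 were over the 90th percentile of their tumour type, and 8 in control. Genes differ here in level and the members were picked as one pathway, so this is a description, with no test.

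The arrays of each tumour type differed in steps, with a low as well as a high array. Replicate 2 of PDGF+p53-/-, replicate 3 of PDGF+p53-/-RBPjk-/- and replicate 1 of p53-/-RBPjk-/- were lowest of their group in 35, 36 and 32 members. The same arrays were lowest in 24.5%, 21.3% and 23.5% of all genes. In PDGF+p53-/- tumours replicate 4 was the highest array of its group in 45 of the 47 members, where it was so in 27.3% of all genes. Its median member lay 1.94 above the control mean and 46 members were above all controls, where 29.7% of all genes were. Replicates 1, 3 and 2 followed with medians of 1.04, 0.65 and 0.28. In PDGF+p53-/-RBPjk-/- tumours replicate 1 led with 29 members highest, where 12.5% of all genes were, and a median of 1.21. Replicates 4 and 2 were at 0.95 and 0.64, and replicate 3 at 0.15 with 18 members (38.3%) above all controls, where 26.7% of all genes were. Among p53-/-RBPjk-/- tumours replicate 2 was highest in 44 members, where 24.6% of all genes were, with a median of 2.58. It had 45 members above all controls, where 31.9% of all genes were. Replicate 4 was at 1.11, and replicates 3 and 1 at 0.28 and 0.02, the last with 12 members (25.5%) above and 10 (21.3%) below all controls. Of all genes 30.4% were above and 33.1% below all controls on that array, so the members' shares were no higher. The lowest tumour array was thus at the level of normal brain for its median member, while its median over all genes was -0.02.

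**Figure D4:**
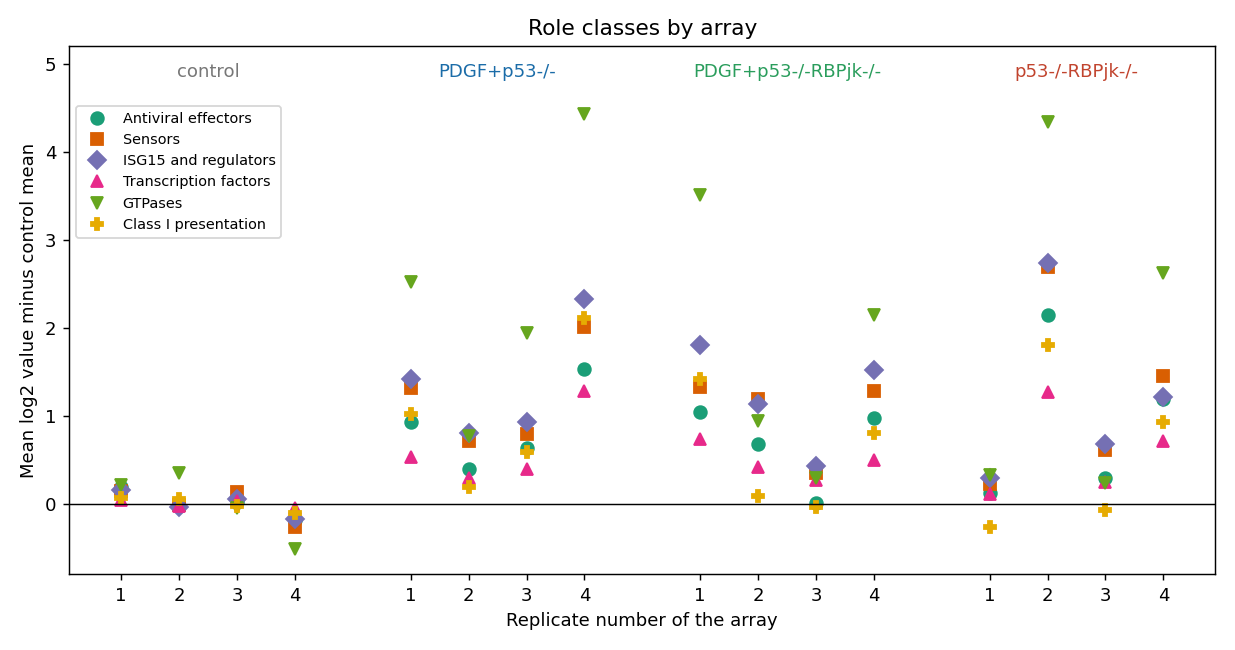
Mean log2 value minus the control mean (vertical axis) over the measured members of each role class, for each of the 16 arrays (horizontal axis, replicate number in the group). GTPases span the widest range, from 0.23 to 4.43 in tumours. Within each tumour type the same array is highest in all 6 classes, and class I presentation lies below the sensors on all tumour arrays but PDGF+p53-/- replicate 4 and PDGF+p53-/-RBPjk-/- replicate 1.

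The 2 highest arrays differed in which genes led. Replicate 4 of PDGF+p53-/- had Irf1 at 9.01, Irgm1 at 10.90 and Psmb9 at 11.13, above replicate 2 of p53-/-RBPjk-/- at 8.42, 10.21 and 10.29. The latter was higher in Oasl2 (10.50 against 9.56), Oas1a (8.56 against 7.34), Ifih1 (9.67 against 8.46) and Mx2 (7.89 against 5.94). By class, the former was higher in class I presentation (2.12 against 1.80 above control), and the latter in effectors (2.15 against 1.54) and sensors (2.69 against 2.01). The chemokines Cxcl9 and Cxcl10, which draw T cells, showed the same turn. Cxcl9 was at 9.98 and 7.14 and Cxcl10 at 10.76 and 12.09 on these arrays. These genes were chosen after their values were seen, and 1 array against 1 array allows no test.

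Tumour types did not differ detectably in any member. In PDGF+p53-/-RBPjk-/- against PDGF+p53-/- tumours, which differ by the RBPjk deletion, 0 of 47 members were called by limma, where 0.0201% of all genes were. At an unadjusted p under 0.05 it was also 0. In p53-/-RBPjk-/- against PDGF+p53-/- tumours 0 members were called, where 5.54% of all genes were. The 1 with an unadjusted p under 0.05 was Irf8, at -0.66 (95% interval -1.28 to -0.05, adjusted p = 0.214). In p53-/-RBPjk-/- against PDGF+p53-/-RBPjk-/- tumours 0 members were called, where 3.27% of all genes were. Here Irf7 alone had an unadjusted p under 0.05, with a difference of 0.51 (95% interval 0.04 to 0.98, adjusted p = 0.256). Arrays of the compared types overlapped in every member, where they did not in 3.17%, 9.75% and 9.69% of all genes.

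These comparisons could miss sizeable differences. The 95% interval reached 0.81 to either side for the median member, 0.29 for Irf3 and 2.29 for Iigp1. For Trim25 the difference between PDGF+p53-/-RBPjk-/- and PDGF+p53-/- tumours had a 95% interval between -0.47 and 0.47, and for Irgm1 between -1.96 and 1.01. The median member difference was -0.25, -0.02 and 0.14 in the order given, and 8, 21 and 33 of the 47 differences were positive. With single arrays left out these medians ran from -0.37 to 0.07, from -0.45 to 0.16 and from -0.29 to 0.40, so the sign of each turned. Centring arrays on 10 housekeeping genes raised the p53-/-RBPjk-/- tumours by 0.12 over PDGF+p53-/- tumours for the median of all genes, which also turned the sign of the second.

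Genes around the members were read from wider pathway lists, drawn up by function but with earlier results of these data known. Of 21 interferon genes 16 were measured, and Ifnz alone rose, in each tumour type (0.75, 0.50 and 0.91). Ifnb1, the first type I interferon that most cells make, differed by 0.30, 0.14 and 0.07 and did not pass. Of 13 measured receptor and JAK-STAT genes 5, 5 and 3 rose and 1, 1 and 2 fell. The type I receptor chain Ifnar2 rose by 0.73, 0.79 and 0.46, the kinase Jak2 by 0.67, 0.79 and 0.74, and the transducer Stat3 by 1.35, 1.40 and 0.59. Jak1, the kinase shared by both interferon types, fell in all 3 (-0.96, -1.07 and -0.98). The interferon gamma receptor chain Ifngr2 fell in p53-/-RBPjk-/- tumours (-0.92).

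Among 15 further sensors and adaptors 4, 3 and 4 rose and 1 fell in each type. Mavs, the adaptor that RIG-I and MDA5 share, rose by 0.91, 1.03 and 1.07. The DNA sensor Cgas rose by 0.63, 0.64 and 0.59 and the nucleotide hydrolase Samhd1 by 1.17, 1.10 and 1.23. Sting1, which relays the signal of cGAS, rose in PDGF+p53-/- tumours by 1.36. Adar, the editor that hides self RNA from MDA5, fell by 0.48, 0.48 and 0.55. Of 32 further interferon-induced genes 8, 3 and 6 rose and 0 fell, led by Ddx60 (2.24, 1.70 and 2.17) and Rtp4 (2.41, 1.74 and 2.04). Of 15 further class I genes 5, 3 and 2 rose. The chaperones Calr (0.64, 0.56 and 0.57) and Pdia3 (0.50, 0.46 and 0.51) rose in all types, and the nonclassical H2-T10 (1.37) and H2-M3 (1.09) in PDGF+p53-/- tumours. The shares of these lists that rose lay on both sides of the background shares given above.

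Markers of immune cells moved with some of the high arrays. Of 13 measured T and NK cell markers 0 passed in any comparison with control (limma). Of all genes 13.6%, 15.7% and 16.4% rose and 17.6%, 17.9% and 20.4% fell. At an unadjusted p under 0.05 there were 0, 1 and 1 of these markers, the last both Cd4, which was lower in tumours. RMA values have no zero, so the absence of a marker cannot be read from them. Their mean level ran from 4.64 to 4.83 in control and was 5.02, 4.55, 4.83 and 5.59 in PDGF+p53-/- tumours. It ran from 4.61 to 4.88 in PDGF+p53-/-RBPjk-/- and from 4.54 to 4.75 in p53-/-RBPjk-/- tumours. Replicate 4 of PDGF+p53-/- was thus the highest of all 16 arrays, and replicate 2 of p53-/-RBPjk-/- lay within the control range. Cd8a, the coreceptor of cytotoxic T cells, was at 6.24, 5.71, 6.19 and 7.76 in PDGF+p53-/- tumours and between 5.74 and 6.19 on the arrays of the other groups. Interferon gamma itself, Ifng, was at 5.13, 4.93, 5.07 and 5.97 there and at 5.13, 5.07, 5.08 and 5.10 in p53-/-RBPjk-/- tumours. Cd8a and Ifng were named after their values were seen.

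Monocyte and macrophage markers, 11 measured, had mean levels of 5.64 to 5.85 in control and 6.43, 5.77, 5.57 and 6.85 in PDGF+p53-/- tumours. They were at 6.35, 6.24, 6.22 and 5.85 in PDGF+p53-/-RBPjk-/- and 5.75, 6.35, 6.63 and 5.93 in p53-/-RBPjk-/- tumours. In PDGF+p53-/- tumours replicates 4 and 1 were the highest in these markers and in the members. Replicate 3 of the p53-/-RBPjk-/- tumours had the highest markers of its type, with a median member 0.28 above control. Of these 11 markers 1, 1 and 2 rose and 1, 1 and 2 fell in the 3 types. Of all genes 13.6%, 15.7% and 16.4% rose and 17.6%, 17.9% and 20.4% fell, so these counts do not set the markers apart. The lysozyme gene Lyz2 rose in each (1.75, 1.80 and 2.76) and Ms4a7 in p53-/-RBPjk-/- tumours (2.40). The mannose receptor Mrc1 fell in both PDGF types (-0.68 and -0.86), and Cd163 (-0.80) and Itgam (-0.76) in p53-/-RBPjk-/- tumours. Of 11 microglia markers 1 rose and 1 fell in both PDGF types, and 1 rose and 6 fell in p53-/-RBPjk-/- tumours. Neuronal markers, a sign of normal tissue in the dissection, were at 7.19, 7.62, 8.66 and 7.46 in PDGF+p53-/-, 7.51, 7.09, 8.30 and 7.39 in PDGF+p53-/-RBPjk-/- and 6.43, 6.42, 7.68 and 6.85 in p53-/-RBPjk-/- tumours, with replicate 3 the highest in each. The part of these cells in the member values was not tested.

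**Figure D5:**
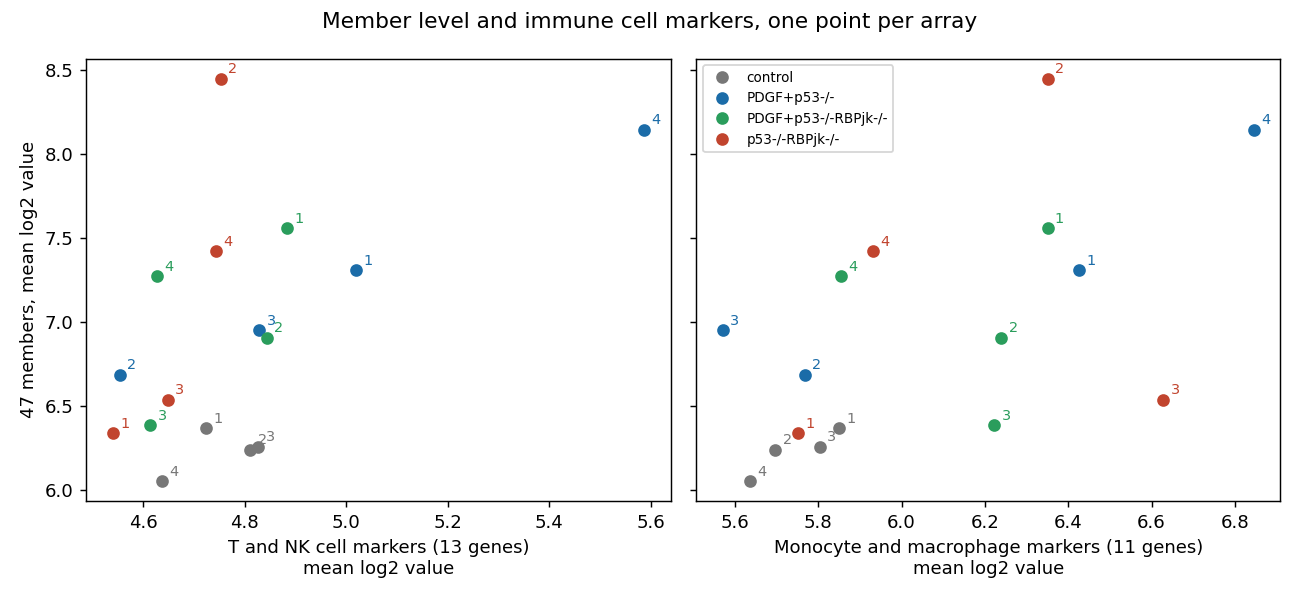
Mean log2 value of the 47 members (vertical axis) against the mean of 13 T and NK cell markers (left) and 11 monocyte and macrophage markers (right), one point for each of the 16 arrays with its replicate number. PDGF+p53-/- replicate 4 is high in both, at 5.59 and 6.85. Replicate 2 of p53-/-RBPjk-/- has the highest member mean with T and NK cell markers of 4.75, within the control range of 4.64 to 4.83.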

How the data were processed

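Total RNA from 16 samples, 4 in each of 4 groups, was hybridised to Affymetrix arrays of the mouse genome. The authors deposited log2 expression values per probe set, which the submitters' processing notes credit to RMA from the package oligo. RMA corrects background, equalises the distributions of the arrays and summarises the probes of each set. Its version and a genome build are not stated by any label used here. Of 35556 probe sets 21789 had a single gene symbol in the platform annotation, 1621 had several and 12146 were not named, and values ran from 1.20 to 14.1 on the log2 scale. For 999 genes with several probe sets the one with the highest mean over all arrays was used, which gave 19938 genes. The number of arrays, not a read depth, limits the precision.

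Groups came from the titles and genotype labels. One limma fit (limma 3.58.1, R 4.3.3, lmFit and eBayes, 12 residual and 5.33 prior degrees of freedom) covered all 16 arrays and 6 comparisons, with Benjamini-Hochberg adjustment over all 19938 genes and a threshold of 0.05. For each gene the fit used a single spread for all groups, although the members spread more within tumour types than within control. Probe sets that members share with other genes were tested in a separate fit of the same kind, adjusted over all 35556 probe sets. Fold values are 2 to the power of the log2 difference. Fits were checked on simulated data in which each gene had the same spread in all groups. That check cannot speak for members that spread more in tumours than in control. Tables and figures used Python 3.11.15, numpy 2.4.6, pandas 2.3.3 and matplotlib 3.10.9. The alternatives were other handling of probe sets, a filter on dim genes, housekeeping centring, quantile normalization again, other moderation, array weights, fits on 2 groups, a replicate block and each array left out.

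The members and the lists were chosen with earlier results of these data known. Genes shown array by array were the 3 with the widest tumour range in each role class. Other members were named where called in at least 1 comparison or going against their class, and list genes where called, at most 6 a list. Ifnb1, Cxcl9, Cxcl10, Cd8a, Ifng, Lyz2, B2m and the other members named without a call lie outside that rule and were chosen after their values were seen.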

Additional observations from a re-analysis of the deposited data

Results flagged for a closer look

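In 7 of 188 sets of 4 arrays tested (3.72%), 1 array of a group lay far from the other 3 by Dixon's criterion, which chance reaches in about 1 of 20 sets. Replicate 4 of the PDGF+p53-/- tumours accounted for 4 of these, all as the highest array of its group. It was at 6.35 for Cmpk2, a mitochondrial nucleotide kinase, where the median of the other 3 was 5.60. It was at 7.81 for Stat2 against 6.65, at 6.96 for Tap2 against 6.004 and at 6.84 for Tapbp against 6.07. Replicate 3 of the same type was low for Trim25, at 7.36 against 7.71. Control replicate 3 was high for Dhx58, at 4.65 against 4.49, and control replicate 4 low for Dtx3l, at 5.43 against 5.80.

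Outside the measured members, the probe set shared by H2-K1, LOC547349 and H2-D1 differed by 2.35 between PDGF+p53-/- tumours and control (limma over all 35556 probe sets, adjusted p = 0.0195). No tumour array of that type overlapped the controls, which ran from 4.92 to 7.34.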

How the results depend on the processing

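The counts of called members kept within 1.5 times of their main value under most alternatives, and 0 called differences of a member changed sign. The median member differences between tumour types, which are small and have no test, did turn: they ran from -0.37 to 0.07, from -0.45 to 0.16 and from -0.29 to 0.40. With only the compared groups in the fit, 28 members were called in PDGF+p53-/- against control and 24 in PDGF+p53-/-RBPjk-/- against control, in place of 16 and 13. The count in p53-/-RBPjk-/- against control stayed within 1.5 times of its main value in that fit. With each array left out in turn the counts ran from 10 to 24 in PDGF+p53-/-, from 8 to 17 in PDGF+p53-/-RBPjk-/- and from 9 to 25 in p53-/-RBPjk-/- against control, and were 0 throughout for the 3 comparisons between tumour types. In the fits with 10 and 24 calls 12.3% and 13.6% of all genes rose, and in those with 9 and 25 calls 14.6% and 15.5%. Fits with 8 calls had 14.2% and 14.4%, and the fit with 17 had 15.5%. No share of all genes was set beside the 28 and 24 or the counts of the other 8 alternatives, so these lack a background. The cause of the changes in count was not tested. The other 8 alternatives gave 13 to 18, 11 to 14 and 12 to 21 calls, the last 21 with housekeeping centring, which raised the median of all genes by 0.15 in that comparison. The replicate block gave 17, 13 and 15 calls. Arrays with the same number share only that number: over 24 pairs their deviations from the group means had correlations from -0.12 to 0.18 (median 0.03), and 7 exceeded 0.1. For single members 1002 alternative values kept their call and 89 lost it. With 4 arrays a group, the median 95% interval of 0.81 to either side limits the comparisons between tumour types, and 16 of the 47 members lie below the median gene (6.29).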
